A study of Aspergillus niger with 6 samples.

Results

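The step from 24 h to 36 h in a citrate fermentation of Aspergillus niger H915-1 was described gene by gene, with the 36 h library set against the 24 h library. Its members were the 8848 genes that reached 1 FPKM (fragments relative to the transcript's length and to the library's mapped total) in at least 1 of those 2 libraries, out of 10257 genes listed in the series. The other 1105 genes of the time course table stayed under 1 FPKM in both libraries, 266 of them at 0 in both. All 6 libraries of the series came from pellets of the same strain, and no genotype or added agent distinguishes them. The groups used here were 36 h at an air supply of 3 vvm (each minute, volumes of air supplied per volume of culture), 24 h at 3 vvm, the other times at 3 vvm (6, 12 and 48 h), and 48 h at 1.5 vvm. Each group had 1 library, so time and library cannot be told apart. None of the differences between 2 libraries below has a replicate check or a p-value, and the 1 count test given, over 5 libraries, has no replicates either. Whether the libraries came from 1 culture sampled repeatedly or from separate cultures is not stated in the labels, and a pellet pools many cells, so fewer cells using a gene and less RNA of it per cell cannot be told apart.

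Aspergillus niger is a filamentous fungus used to make citric acid. Sugar is broken down by glycolysis, citrate is formed in the mitochondria by citrate synthase, and the acid is exported into an acidic, well aired medium. As growth slows and acid builds up, the culture passes from making biomass to making acid. In filamentous fungi the genes for one secondary metabolite, or for the use of one nutrient, often lie side by side on a chromosome, which is why position is described below. The identifiers of the files matched 0 of the 14404 genes in the reference table of names, so no gene is given a function here, and genes other than those chosen by size of change are given by contig, start and end in the authors' own assembly.

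The 2 libraries held 5371485 fragments at 36 h and 5298533 at 24 h, with 478 and 501 of the 9953 listed genes at 0. For the median gene 3 fragments, the limit that a count of 0 allows, came to 0.496 FPKM at 36 h and 0.497 FPKM at 24 h. From counting alone, the relative SD is 31.6% at 10 fragments and 3.16% at 1000. The sum of FPKM was 940078 at 36 h and 902578 at 24 h. The 10 genes with the most fragments took 16.2% of them at 36 h, against 20.3% at 24 h.

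More genes were higher at 36 h than were lower. On the scale of log2((36 h FPKM + 1)/(24 h FPKM + 1)), 497 genes were at least 2-fold higher at 36 h, which is 5.62% of those described, and 276 were at least 2-fold lower, or 3.12%. A 4-fold limit was passed by 104 higher and 54 lower genes, and a 16-fold limit by 12 and 5. The bulk of the genes lay near no change, with 77.1% within 1.5-fold, a median log2 change of 0.06 and quartiles of -0.22 and 0.36. The median was 0.0041 with FPKM rescaled to a common sum and 0.0057 with TMM factors (edgeR's scaling between libraries). Just inside the 2-fold limit, at a log2 change of 1 to 1.1, were 87 higher genes, and just outside it, at 0.9 to 1, were 105. On the lower side these counts were 54 and 84.

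Adjacent steps give the scale of this one. In the step from 12 to 24 h 9.66% of 8840 genes were at least 2-fold apart, from 24 to 36 h 8.74%, and from 36 to 48 h 4.78% of 8866. Higher genes were 5.42%, 5.62% and 2.76% in these steps, and lower genes 4.24%, 3.12% and 2.02%. The steps share libraries, so they are given side by side and were not tested against each other.

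Changed genes were found at every level of expression. Among genes of 1 to 10 FPKM in the higher library, 9.91% were higher at 36 h and 5.08% lower, with a median of 21 fragments. Genes of 10 to 50 FPKM had 4.75% higher and 2.61% lower, and genes of 50 to 200 FPKM 4.04% and 2.28%. Of the 841 genes at 200 FPKM or more, 34 (4.04%) were higher and 27 (3.21%) lower, and the median log2 change there was 0.15. Short genes were more frequent among the changed genes, since 10.3% of higher and 14.9% of lower genes spanned at most 500 bases, against 3.68% of all genes described. In such genes few fragments make a large FPKM.

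**Figure D1:**
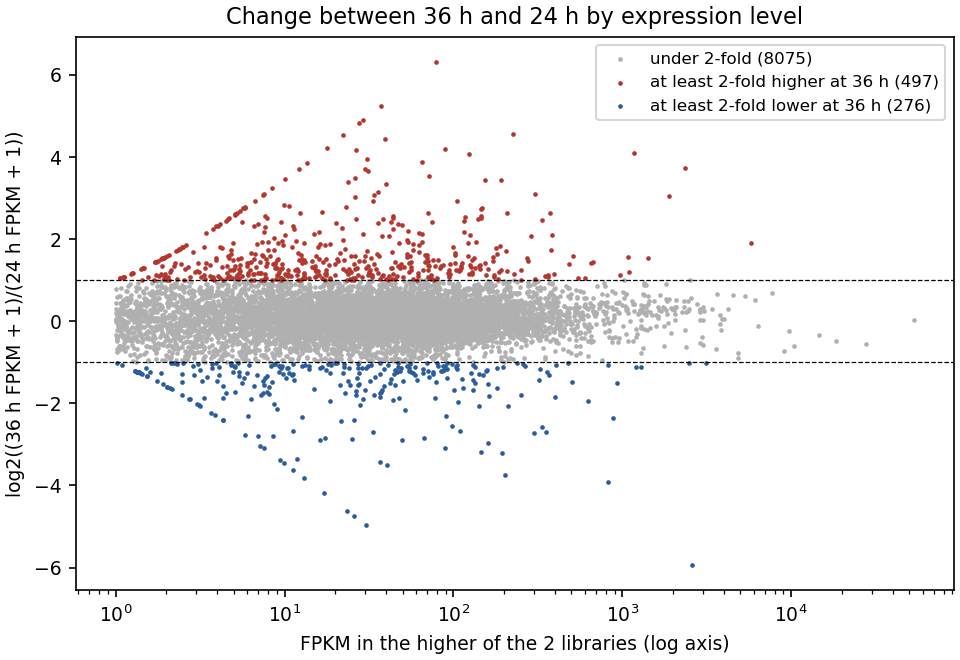
Each point is 1 of the genes described, with its FPKM in the higher of the 2 libraries on a log axis and its log2 change at 36 h relative to 24 h on the vertical axis. Dashed lines mark 2-fold, with 497 genes above and 276 below. The slanted edges at the left are genes at or near 0 in 1 of the libraries.

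Counting error bears on the low genes. Of the 497 higher genes, 417 had at least 10 fragments at 36 h and 224 had at least 100. For 411 of them the exact 95% counting interval of the fragment ratio, taken relative to depth, lay above equal levels, and for 195 it lay above 2-fold. Among the 276 lower genes, 218 had at least 10 fragments at 24 h, 216 had an interval clear of equal levels and 105 one beyond 2-fold. The genes were chosen for a 2-fold change between these same 2 libraries, which favours intervals clear of equal levels. The share of such intervals over all genes was not counted. These intervals cover counting error only and say nothing of how far 2 cultures would differ.

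Few genes with no fragment in 1 library had a clear signal in the other. There were 58 higher genes with 0 fragments at 24 h, and 6 of these had 10 or more at 36 h. No lower gene with 0 fragments at 36 h had more than 7 at 24 h. The best counted of these 6 is on unitig_4 from 662631 to 663889, with 2, 21, 0, 63 and 27 fragments at 6, 12, 24, 36 and 48 h. Its level was 13.6 FPKM at 36 h, against 0 at 24 h, and at least 20.7-fold higher when 3 fragments are taken at 24 h. With the counting error of the 36 h value included, the exact 95% lower limit of the ratio was 16.4-fold. It had been detected at 12 h at 4.68 FPKM, so it was low at 24 h and high on both sides.

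The 2 highest and 2 lowest log2 changes were taken from the 6880 genes that reached 10 FPKM, and 3 of these 4 rested on single fragments. Highest was evm.model.unitig_23.1, which spans 10642 to 10878 of its contig, with 78.7 FPKM at 36 h from 1 fragment and 0 at 24 h. Next was evm.model.unitig_1.466, which spans 1557092 to 1557271, with 37.1 FPKM at 36 h, again from 1 fragment, and 0 at 24 h. On the lower side, a gene on contig 1 from 587469 to 587651 had no fragment at 36 h, against 1 fragment and 30.4 FPKM at 24 h. All 3 span at most 237 bases, and no change can be read from them.

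The remaining gene of the 4 is well counted. It is evm.model.unitig_4.303, which spans 1012158 to 1012660, and it had 7.94, 9.22, 2580, 41.0 and 264 FPKM at 6, 12, 24, 36 and 48 h, from 5, 6, 1817, 27 and 206 fragments. It was therefore low in the first 2 libraries, high at 24 h and low again at 36 h. Relative to depth it was 68.2-fold lower at 36 h than at 24 h (95% counting interval 46.7 to 103.8), a log2 change of -5.94. At 1.5 vvm and 48 h it stood at 614 FPKM.

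Because 6 of the 12 highest and 6 of the 12 lowest genes on that scale had under 10 fragments, genes were also ordered by the counting limit nearest to equal levels, a rule chosen after the values were seen. Its 12 first higher genes had at least 63 fragments at 36 h and lower limits of at least 8.36-fold. In 11 of the 12 the 36 h library was the highest of the 5 times, and all 12 were still at least 2-fold above 24 h at 48 h. This order favours a high 36 h value and leaves much room before the 2-fold limit. Of all 497 higher genes, 269 were highest at 36 h, and 294 were still at least 2-fold above 24 h at 48 h.

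The first in that order lies on unitig_5 from 1508856 to 1510594. It had 5.01, 14.1, 8.59, 224 and 91.8 FPKM from 6 to 48 h, so that 36 h was the highest and 48 h the next. It was 26.1-fold above 24 h at 36 h (lower limit 20.53, upper 33.6), with 1850 and 70 fragments. Its neighbour, from 1505905 to 1507982, had 3.19, 8.31, 3.97, 89.6 and 33.9 FPKM and was 22.4-fold higher (15.5 to 33.4). Both genes were past 20-fold at 36 h and past 8-fold at 48 h, when they stood 10.5-fold and 8.51-fold above 24 h. At 1.5 vvm they had 335 and 48.6 FPKM.

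Other well counted higher genes differed in what came before and after. The gene on contig 1 from 4293928 to 4295529 was nearly silent early, with 0, 0.137, 0.537, 26.5 and 92.6 FPKM from 6 to 48 h, and went on from 36 to 48 h. With 198 fragments at 36 h and 4 at 24 h it was 48.8-fold higher (18.8 to 181). On unitig_4 from 1294007 to 1295236, a gene at 0.229, 1.11, 0.859, 39.2 and 16.2 FPKM had a 36 h level 44.9-fold that at 24 h (17.2 to 166). Another, on unitig_0 from 5433139 to 5440717, had 2.23, 8.83, 3.49, 65.0 and 36.0 FPKM and was 18.6-fold higher (15.7 to 22.2). In the 1.5 vvm library these 3 genes were at 16.2, 9.70 and 7.19 FPKM, each below its level at 36 h and at 48 h with 3 vvm.

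In FPKM, the largest gain past 2-fold was that of a short gene on unitig_4 from 264162 to 264678. It had 759, 2457, 1529, 5748 and 1463 FPKM from 6 to 48 h, which put 36 h far above the times on both sides. By fragments relative to depth it was 3.46-fold higher at 36 h than at 24 h (3.25 to 3.68). Its ratio in FPKM was larger, with a log2 change of 1.91, and at 48 h it was back near its 24 h level. The next gain was on unitig_2 from 645804 to 646558, with 20.7, 778, 177, 2354 and 1116 FPKM, which was 12.9-fold higher at 36 h (11.6 to 14.3). On unitig_2 from 4754900 to 4755402 the course was 166, 323, 491, 1421 and 6649 FPKM, higher at each time than before, and 36 h was 2.71-fold above 24 h (2.46 to 2.98). All genes at least 2-fold higher together gained 28908 FPKM, and all genes higher by any amount gained 138136. The change was -19425.5 FPKM for all genes at least 2-fold lower and -100636 FPKM for all genes lower by any amount. The sum of FPKM also differed between the libraries, at 940078 at 36 h and 902578 at 24 h.

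The most abundant genes were taken separately. Among the 20 genes with the most FPKM in either library, 1 was at least 2-fold higher (the short gene on unitig_4 just described), none was at least 2-fold lower, and 10 were lower by any amount, with the lowest at a log2 change of -0.90. The most abundant gene, on unitig_2 from 3499129 to 3499977, had 53274 FPKM at 36 h and 52492 at 24 h. The highest fragment number at 24 h belonged to a gene on contig 1 from 2874224 to 2876395, which had 27635, 18735 and 27578 FPKM at 24, 36 and 48 h. It took 156788 fragments at 36 h, against 231656 at 24 h.

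The 12 first lower genes in the same order had at least 44 fragments at 24 h and were at least 6.20-fold lower by the limit nearest to equal levels. The 24 h library was the highest of the 5 times in 9 of them, and 11 of the 12 were still at least 2-fold below 24 h at 48 h. Here the order favours a high 24 h value. Of all 276 lower genes, 142 were highest at 24 h, and 138 were still at least 2-fold below 24 h at 48 h. The gene on unitig_0 from 4269250 to 4273225 had 34.0, 36.0, 145, 15.1 and 26.3 FPKM from 6 to 48 h and was 9.66-fold lower at 36 h (8.53 to 10.97). The exception among the 12 at 48 h lies on unitig_0 from 1271584 to 1273380. With 0, 0.336, 195, 20.4 and 157 FPKM it was 9.51-fold lower at 36 h (7.90 to 11.5) and near its 24 h level again at 48 h. At 1.5 vvm it stood at 217 FPKM.

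Not all lower genes had peaked at 24 h. On unitig_6 from 557889 to 559310 a gene had 139, 140, 49.8, 5.80 and 4.21 FPKM, lower at 24 h than before, lower again at 36 h by 8.86-fold (6.20 to 13.0) and at the lowest at 48 h. The gene on unitig_3 from 185468 to 186694 had 866, 971, 884, 171 and 282 FPKM, level up to 24 h and 5.23-fold lower at 36 h (4.88 to 5.62). It is the most abundant of 3 neighbours from 181578 to 186694 that were all at least 2-fold lower, with a median of 49.5 FPKM at 36 h and 211 at 24 h, and all 3 were still at least 2-fold lower at 48 h.

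Most of the higher genes kept their change at 48 h. Of the 497 higher genes, 294 (59.2%) were at least 2-fold above 24 h at 48 h too, 116 (23.3%) were partly kept, at a log2 change of 0.5 to 1, and 87 (17.5%) had returned to under 0.5. None was at least 2-fold below 24 h. Over all genes 6.62% passed 2-fold upward at 48 h relative to 24 h. The comparisons of 36 h and of 48 h share the 24 h library, so this count describes the courses and is no independent check.

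Among the 104 genes at least 4-fold higher, 88 (84.6%) were kept, 5 partly kept and 11 returned. These genes started further above the 2-fold limit, so they could fall further and still count as kept. The median log2 change from 36 to 48 h was -0.64 in the 104 genes, against -0.33 in all 497. Between 36 and 48 h 31 of the 104 fell at least 2-fold. Relative to 36 h, 45 of the 497 genes were at least a further 2-fold higher at 48 h, and 78 were at least 2-fold lower. Of all genes, 2.76% were higher and 2.02% lower by that much. The 45 had medians of 1.12, 1.94, 3.13, 12.8 and 44.7 FPKM from 6 to 48 h, and the 78 had medians of 4.93, 5.80, 1.80, 16.6 and 4.95 FPKM. How the genes were chosen sets the order of the last 3 times in the 45. In the 78 it sets only that 36 h lies above 24 h and above 48 h. The median log2 change of all 497 genes was 1.39 at 36 h and 1.22 at 48 h, both relative to 24 h.

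Lower genes were kept in 138 of 276 cases, partly kept in 71 and returned in 67, while 3.21% of all genes passed 2-fold downward at 48 h relative to 24 h. A further 2-fold fall from 36 to 48 h was seen in 3 genes, and 55 were at least 2-fold back up. Of all genes, 2.02% fell and 2.76% rose by that much. The median log2 change of the 276 genes was -1.33 at 36 h and -0.996 at 48 h, relative to 24 h. Of the 54 genes at least 4-fold lower, 38 were kept and 14 returned. Here too a larger change left more room before the 2-fold limit, and 21 of the 54 rose at least 2-fold between 36 and 48 h. By level, 39 of 100 lower genes under 10 FPKM were kept and 33 returned, and at 10 to 50 FPKM 49 of 88 were kept and 12 returned. At 50 to 200 FPKM 39 of 61 were kept and 9 returned, and at 200 FPKM or more 11 of 27 were kept and 13 returned.

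Returns were also counted by depth. Of the 80 higher genes with under 10 fragments at 36 h, 28 had returned at 48 h, against 59 of the 417 with more. Of the 58 lower genes with under 10 fragments at 24 h, 24 had returned, against 43 of 218. All these genes were chosen on the 36 h and 24 h libraries, and the part of that choice in the returns was not tested.

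**Figure D2:**
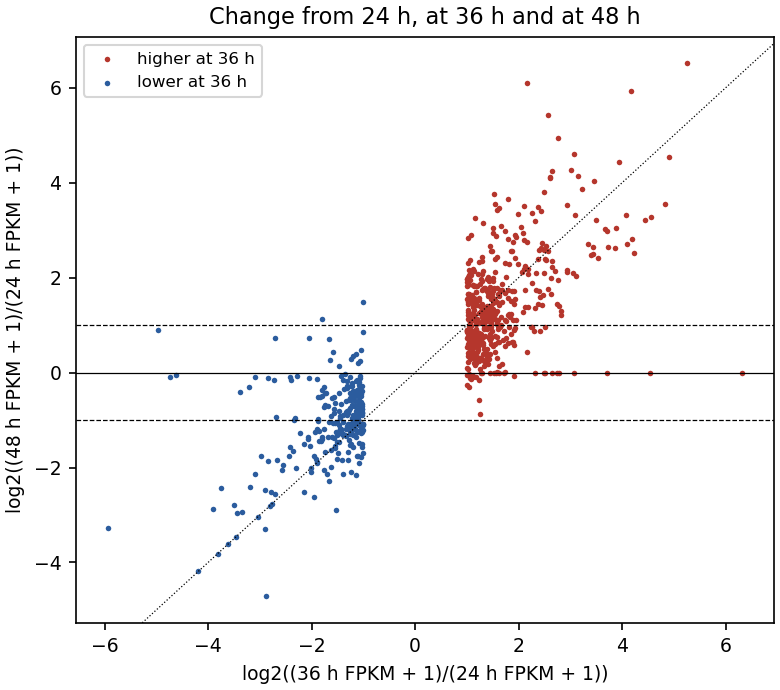
Each point is a gene at least 2-fold higher or lower at 36 h, with its log2 change at 36 h on the horizontal axis and at 48 h on the vertical axis, both relative to 24 h. Dashed lines mark 2-fold at 48 h and the dotted line marks equal change. Of 497 higher genes 294 lie above the upper dashed line, and of 276 lower genes 138 lie below the lower one.

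**Figure D3:**
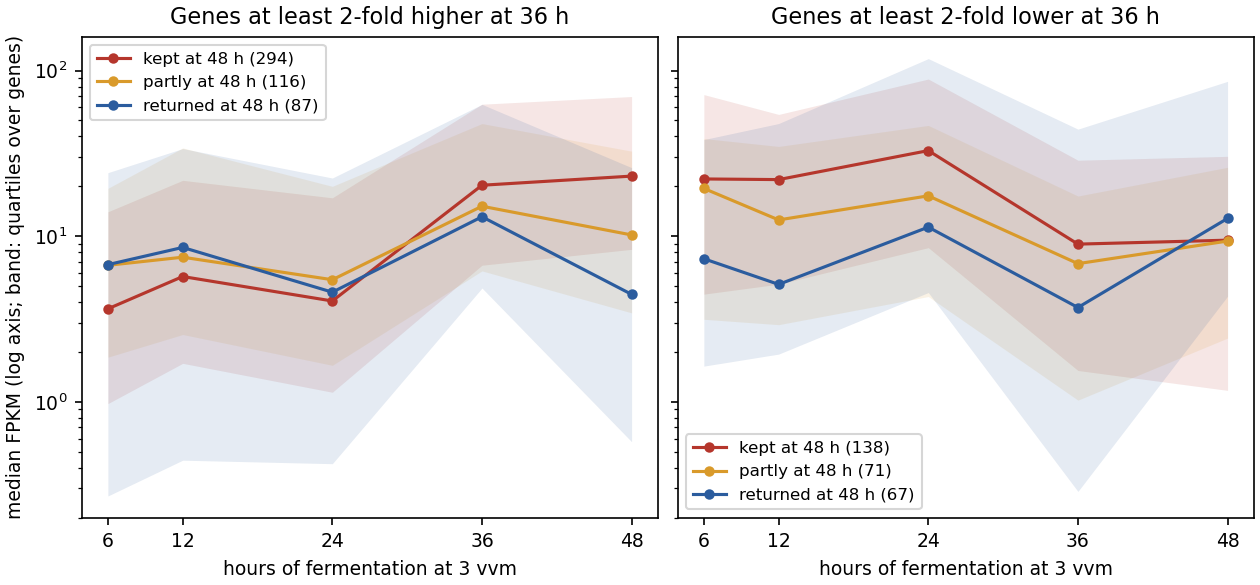
Lines are the median FPKM on a log axis at 6, 12, 24, 36 and 48 h for genes at least 2-fold higher (left) or lower (right) at 36 h, split by whether the change was kept, partly kept or returned at 48 h; bands are the quartiles over genes. The kept higher genes had medians of 4.06, 20.3 and 23.0 FPKM at 24, 36 and 48 h, and the returned ones 4.59, 13.1 and 4.45.

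What came before 24 h differed among the higher genes. The largest group, 344 of 497 (69.2%), had been within 2-fold between 12 and 24 h, with medians of 3.60, 4.63, 3.99, 13.6 and 14.3 FPKM from 6 to 48 h. That is a smaller share than over all genes, of which 9.66% were at least 2-fold apart in that step. Another 35 had already passed 2-fold upward between 12 and 24 h, with medians of 2.75, 3.80, 17.4, 43.1 and 59.0 FPKM. They were 7.04% of the higher genes, near the 5.42% of all genes that passed 2-fold upward in that step. The other 118 (23.7%) had passed 2-fold downward between 12 and 24 h, against 4.24% of all genes. Both steps share the 24 h library, and a choice of genes for a 36 h level above 24 h favours a low 24 h value. The medians of these 118 genes were 11.2, 17.6, 3.77, 23.5 and 16.4 FPKM, where 24 h lay below 12 and 36 h by how they were chosen. In 240 genes (48.3%) the 36 h level was at least 2-fold above each of 6, 12 and 24 h, and 168 of those 240 were kept at 48 h.

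Lower genes were split in the same way. Between 12 and 24 h 85 of 276 (30.8%) had passed 2-fold upward, against 5.42% of all genes, and here the choice of genes favours a high 24 h value. The medians of these 85 genes were 4.61, 3.87, 26.7, 5.73 and 9.48 FPKM from 6 to 48 h. Their 24 h level lay above 12 and 36 h by how they were chosen. Another 23 had already passed 2-fold downward between 12 and 24 h, against 4.24% of all genes, with medians of 125, 129, 29.3, 8.16 and 12.3 FPKM. At 36 h 86 genes (31.2%) were at least 2-fold below each of the 3 earlier times, and 47 of them were kept at 48 h.

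Departures of 1 library from both its neighbours in time were not limited to 24 h. The 24 h library was at least 2-fold above both 12 and 36 h in 85 genes and below both in 118. These are the 85 lower and 118 higher genes already described, counted again for comparison with other times. For the 12 h library these counts were 112 and 79, and for the 36 h library, set against 24 and 48 h, they were 78 and 55. With 1 library at each time, a brief change in the culture and a difference between libraries cannot be told apart.

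The 1.5 vvm library at 48 h took no part in choosing these genes or in any course above. Among genes of at least 10 FPKM and listed with it, 150 of 299 higher genes (50.2%) were at least 2-fold above 24 h there, and 183 (61.2%) were at 48 h and 3 vvm. Among lower genes, 40 of 176 (22.7%) were at least 2-fold below 24 h at 1.5 vvm and 99 (56.3%) were at 3 vvm. In 111 of these 176 genes the 1.5 vvm level lay within 2-fold of 24 h, and in 25 it was at least 2-fold above 24 h. Of the 299 higher genes, 4 were at least 2-fold below 24 h at 1.5 vvm. The median log2 difference of the 176 lower genes from 24 h was -0.43 at 1.5 vvm and -1.08 at 3 vvm. Of all 6877 genes at that level, 9.25% were at least 2-fold higher at 1.5 vvm than at 24 h and 1.90% lower, with 4.62% and 2.73% at 48 h and 3 vvm, and the median log2 difference of the 1.5 vvm library from 24 h was 0.13. Each of these counts uses the 24 h library, and the 1.5 vvm values come from the other table.

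Genes next to a changed gene had changed the same way more often than genes in general, but most had not. Of 494 higher genes with a next gene past the filter, 87 (17.6%) had a next gene that was also higher, against 5.62% of all genes. Of 275 lower genes 35 (12.7%) had a next gene that was lower, against 3.12%. The next gene was past 2-fold the other way for 18 higher genes (3.64%) and 13 lower genes (4.73%). These shares are near the 3.12% of all genes that were lower and the 5.62% that were higher. Over 8828 pairs of neighbours, log2 change had a Pearson correlation of 0.16, a description only since all pairs share the 2 libraries.

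Long runs were rare. There was 1 run of at least 5 consecutive genes that were all at least 2-fold higher, and none of lower genes. That count was 0 with a pseudocount of 5 FPKM, with genes of at least 10 FPKM only, and with at least 10 fragments required. At 4 genes or more there were 6 higher runs and 1 lower, and at 3 or more 16 and 3, lengths that were added after the values were seen. The run of 5 lies on unitig_3 from 2006339 to 2030313. Its medians were 4.22, 4.12, 2.53, 6.96 and 8.92 FPKM from 6 to 48 h, its log2 changes lay between 1.11 and 1.94, and its fewest fragments at 36 h were 9. At 48 h 3 of its genes were kept and 2 partly kept.

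Of the 6 higher runs of 4 genes or more, that of 4 genes on unitig_3 from 2332711 to 2342573 was the best counted, with at least 30 fragments in each gene at 36 h. Each of its genes had passed 2-fold downward between 12 and 24 h, and each was kept at 48 h. The third gene, from 2337535 to 2338629, had 52.5, 76.1, 6.43, 124 and 73.7 FPKM from 6 to 48 h and was 19.0-fold higher at 36 h than at 24 h (12.4 to 30.7). The fourth, from 2339979 to 2342573, had 14.1, 18.7, 3.03, 39.8 and 25.4 FPKM and was 13.0-fold higher (9.05 to 19.2). The second, from 2334070 to 2335767, was the most abundant, with 48.8, 103, 35.5, 137 and 119 FPKM. All 4 thus dipped at 24 h and were highest at 36 h.

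Another run on unitig_3, with 4 genes from 3424468 to 3439611, had medians of 5.56, 29.0, 6.58, 31.7 and 22.5 FPKM. Here too the median at 24 h was low between 12 and 36 h. The run of 4 on unitig_5 from 376149 to 384940 had medians of 12.1, 22.6, 6.75, 26.5 and 21.4 FPKM, and its most abundant gene, from 380668 to 382147, had 228 FPKM at 36 h, against 103 at 24 h, and 46.2 FPKM at 1.5 vvm. Among the runs of 3, that on unitig_5 from 3287029 to 3293200 climbed throughout, with medians of 0.751, 1.37, 2.35, 26.1 and 63.1 FPKM. That on contig 1 from 4043416 to 4057163 had medians of 0.658, 3.87, 1.36, 29.9 and 17.7 FPKM, and 2.91 FPKM at 1.5 vvm. All 3 genes of each of these last runs were kept at 48 h.

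The only run of 4 lower genes, on unitig_0 from 6100644 to 6112289, held genes of few fragments, with as few as 2 at 24 h. A better counted stretch lies nearby on the same contig, from 6032184 to 6055810, where 4 of 6 genes were at least 2-fold lower at 36 h and 1 was at least 2-fold higher. It was found by taking genes of the well counted list within 30 kb of each other. Its 4 lower genes are all on that list, so their number was set by how the stretch was drawn. Of all genes described, 3.12% were lower. Its first gene, from 6032184 to 6035504, had 81.5, 112, 820, 53.5 and 111 FPKM from 6 to 48 h and was 15.4-fold lower at 36 h (14.4 to 16.6), with 808 and 12309 fragments at 36 and 24 h. The second, from 6039400 to 6040818, had 0.437, 3.87, 203, 14.1 and 37.2 FPKM and was 14.6-fold lower (11.4 to 18.9). The last, from 6054054 to 6055810, did not peak at 24 h, with 66.9, 23.4, 6.92, 0.137 and 0.123 FPKM. Between them, the gene from 6045303 to 6046896 was higher at 36 h, with 78 fragments against 17 at 24 h.

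**Figure D4:**
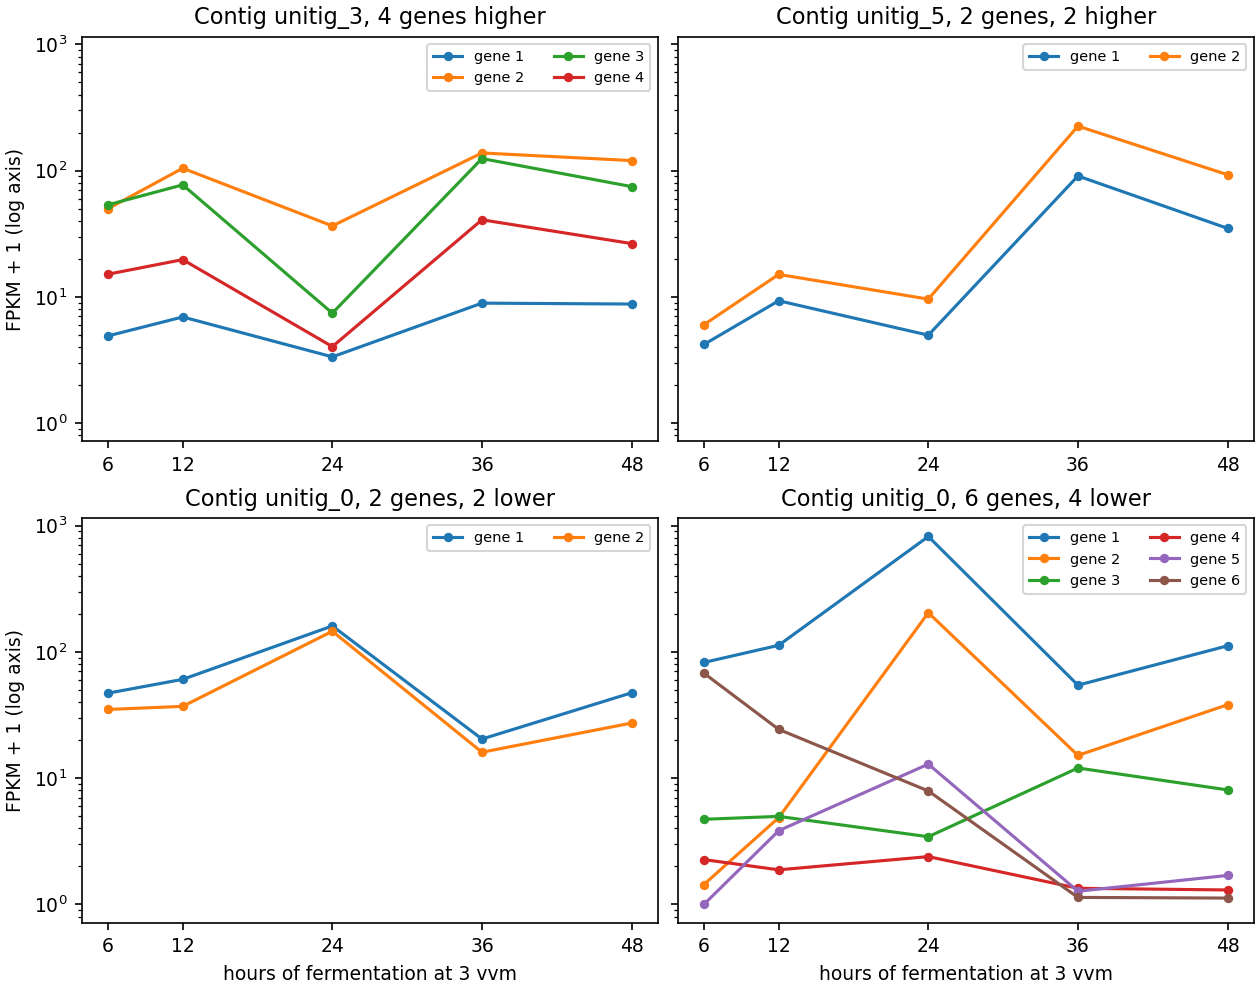
FPKM + 1 on a log axis at 6, 12, 24, 36 and 48 h for single genes of 4 regions, numbered in order along the contig. The 4 genes on unitig_3 (from 2332711) were low at 24 h and highest at 36 h, the 2 on unitig_5 (from 1505905) were highest at 36 h, and the 2 on unitig_0 (from 4263486) and genes 1 and 2 of the stretch of 6 (from 6032184) were highest at 24 h.

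Changed genes were spread over all 8 long contigs, with 8830 of the genes described. Higher genes made up between 3.69% (unitig_0) and 7.72% (unitig_3) of the genes of a contig, and lower genes between 2.65% (unitig_3) and 3.57% (unitig_5). Within 100 kb of a contig's first base or last gene, 34 of 291 genes (11.7%, exact 95% interval 8.23 to 15.9) were higher at 36 h, against 5.39% of 8539 genes elsewhere (4.92 to 5.89). The share of lower genes was 7.22% near ends (4.52 to 10.8), against 2.97% away from them (2.62 to 3.36). With 10 FPKM or more required, 11.1% of 144 genes near ends and 4.23% of 6734 genes elsewhere were higher. The intervals treat neighbours as independent and are therefore too narrow, and level was matched no further than that.

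One count test could be made, on fragments of all 5 libraries at 3 vvm. In edgeR's quasi-likelihood test of a step between the first 3 and the last 2 times on top of a trend in log2 time, 1 of 8987 genes had a Benjamini-Hochberg adjusted p under 0.05. It was the gene on unitig_0 from 1271584 to 1273380 described above, with an adjusted p of 0.0376 by edgeR and a fitted step of -8.15 on the log2 scale. That step is measured from the fitted trend carried on past 24 h, and the log2 change between the libraries themselves was -3.20. Its levels at 36 and 48 h, 20.4 and 157 FPKM, lay above those at 6 and 12 h, 0 and 0.336 FPKM. The course is therefore no lasting step down from the first 3 times. The call was lost when the trend was fitted to hours without the log: 0 genes were called, the lowest adjusted p by edgeR was 0.749, and 314 genes had an unadjusted p under 0.05. At an unadjusted p under 0.05 the edgeR fit in log2 time had 660 of 8987 genes, 282 higher and 378 lower. A share of 0.05 of the genes would fall there with no step in any gene, and the 314 genes of the fit in hours are below that share. Lower genes were the more frequent here, unlike among the 2-fold changes. The spread in these fits comes from how far libraries lay from the fitted line, on 2 residual degrees of freedom, and no replicate enters it.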

How the data were processed

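Per the labels' protocols, pellets were flash frozen, RNA was extracted with a Qiagen kit, and an Illumina TruSeq RNA kit, which is normally unstranded, served for library construction. Per the submitters' processing notes the tools were TopHat2 2.0.9 and Cufflinks 2.1.1, while build, annotation and strand handling are not stated there. Both tables hold FPKM values made by the authors, and the 24 h FPKM agreed exactly at 9930 of 9930 shared loci. Columns headed as counts hold a deposited signal, scaled by the authors to 1 total per table. Dividing by the step of each column gave whole fragments, within 0.1, for at least 99.9% of values. A further 5 value columns were not used, of which 4 matched no label.

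Genes were kept at 1 FPKM or more at 24 or 36 h, and changes are log2(FPKM + 1) differences, a scale that understates low genes. A change was called at 2-fold, and kept at 48 h when it was still at least 2-fold from 24 h. Intervals of fragment ratios and shares are exact 95% binomial intervals (Clopper-Pearson, scipy 1.17.1) and cover counting error only. Folds given with such an interval are ratios of fragments relative to depth, and can differ from the ratio in FPKM. Named genes were the 2 highest and 2 lowest by log2 change at 10 FPKM or more. The members, lists and rules were chosen with earlier results of these data known, and gene lists could not be applied because 0 identifiers matched. edgeR 4.0.16 in R 4.3.3 fitted recovered fragments of genes with at least 15 in total, with TMM factors, and DESeq2 1.42.0 gave other size factors. The 2-fold comparison and the edgeR fit were also tested on simulated fragments. Starts were raised by 1 so that positions count from 1. No sequence was used here.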

Additional observations from a re-analysis of the deposited data

How the results depend on the processing

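No paired analysis was possible because each group has 1 library. With a pseudocount of 5 FPKM, 253 genes were at least 2-fold higher and 144 lower, 151 and 79 of them kept at 48 h, with 0 higher runs of at least 5 genes and a median log2 change of 0.048. With genes of at least 10 FPKM only, 302 were higher and 176 lower, 184 of the higher were kept, and there were 0 such runs, nor were there any (0) with at least 10 fragments in the higher library, a limit added after the data were seen. These limits remove low genes by construction. The median log2 change was 0.0041 with FPKM rescaled to a common sum, 0.0057 with TMM and 0.039 with no filter, and higher genes were 59.3% and 58.4% of those past 2-fold under both rescalings, in place of 64.3%. The share of higher genes kept lay between 59.2% and 63.4% and that of lower genes between 49.8% and 56.3% under every setting tried. The edgeR step fit called 0 genes with time in hours (314 at an unadjusted p under 0.05) and 4 with no filter on low counts; the cause was not tested. The other 36 values kept their direction and stayed within 1.5 times or within their interval. The 16 values of named genes kept their sign, which says little, since 3 of the 4 genes rest on 1 fragment. Depth limits the 80 higher and 58 lower genes with under 10 fragments in the higher library most.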
